A study of Camellia sinensis with 6 samples.

Results

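The 70 kDa heat shock proteins (HSP70) of the tea cultivar ‘Huangjinya’ were followed in leaf RNA from shaded and sunlit plants, and the unigenes, the assembled transcript sequences, were grouped by the cell compartment in which the protein works. Members were found by annotation alone. A unigene was taken when it carried 1 of 4 KEGG ortholog numbers of the HSP70 family, or when its best hit in the NR protein database was named HSP70, heat shock 70, heat shock cognate or luminal-binding protein, and names with DnaJ, organizing or interacting were dropped. This gave 91 of the 127252 unigenes read. Of these, 83 carried an HSP70 ortholog number: 47 cytosolic HSP70, 8 cytosolic HSP110, 6 of the endoplasmic reticulum (ER), 12 of the chloroplast and 10 of the mitochondrion. The other 8 belonged to other families that share a word of the name, 3 to HSP90, 3 to HspBP1 and 2 to FES1, and they are described apart from the 83.

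HSP70 proteins hold unfolded stretches of other proteins and release them in a cycle driven by ATP. DnaJ proteins speed the hydrolysis of ATP, and nucleotide exchange factors such as HSP110, BAG, HspBP1, FES1 and, in organelles, GrpE help ADP leave. In plant cells, cytosolic HSP70 folds new and damaged proteins and assists precursors on the way to organelles, BiP, also called luminal-binding protein, does this work in the ER, and the stromal and mitochondrial forms help to import and fold proteins inside those organelles.

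The plants were 2 years old, of 1 cultivar, ‘Huangjinya’, whose leaves are yellow in full light, and grew in 1 field. The shaded group stood for 10 days under a net layer that lowered the light by about 45%, and the sunlight group had no net. Leaves of position 3 from the top were taken, and 3 libraries came from shaded plants (Y+S1, Y+S2, Y+S3) and 3 from sunlit plants (Y1, Y2, Y3), each from different plants. The study left Y+S3 and Y1 out of its search for changed genes, so each test was run over the other 4 libraries and then over all 6.

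The libraries held 10022397 to 18742989 counted fragments, and the 83 HSP70 unigenes took 0.0654% to 0.340% of them. Levels are normalized CPM, counts scaled by TMM and by library size, unless FPKM is named, which also divides by unigene length. Y+S3 and Y1 had the lowest scaling factors (0.695 and 0.761) and the lowest shares of counts on unigenes of at least 3000 nt (4.77% and 5.54%, against 6.77% to 9.41% in the other 4). The spread between libraries of a group, as edgeR's common biological coefficient of variation, was 0.282 over 4 libraries and 0.513 over 6. Leaf markers, 62 unigenes for the rubisco small chain, rubisco activase and chlorophyll a/b binding proteins, took 2.87% to 5.44% of the counts of every library. Histone and cyclin B unigenes, 68 markers of dividing tissue, took 0.162%, 0.365% and 0.401% in shaded libraries, against 0.815%, 0.381% and 0.303% in sunlight libraries, and their part in the results below was not tested. The key deposited with the table names the libraries, and 2 of the sample descriptions conflict with it within their group, so every statement about Y+S3 and Y1 rests on that key.

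Cytosolic HSP70 transcripts were higher in shaded leaves. Summed over the 47 unigenes, they reached 1132, 833 and 543 normalized CPM in the shaded libraries Y+S1, Y+S2, Y+S3, against 173, 198 and 233 normalized CPM in Y1, Y2 and Y3. The lowest shaded library lay above the highest sunlight library, and the shaded mean was 4.15 times the sunlight mean (836 ± 295 and 202 ± 30.3, SD, n = 3 each). With the deposited FPKM the same ratio was 4.30, but the groups lay closer. The lowest shaded sum was 416 FPKM in Y+S3, and the highest sunlight sum 346 FPKM in Y3. In bulk leaf RNA, more cells that express a gene and more RNA per cell cannot be told apart.

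**Figure D1:**
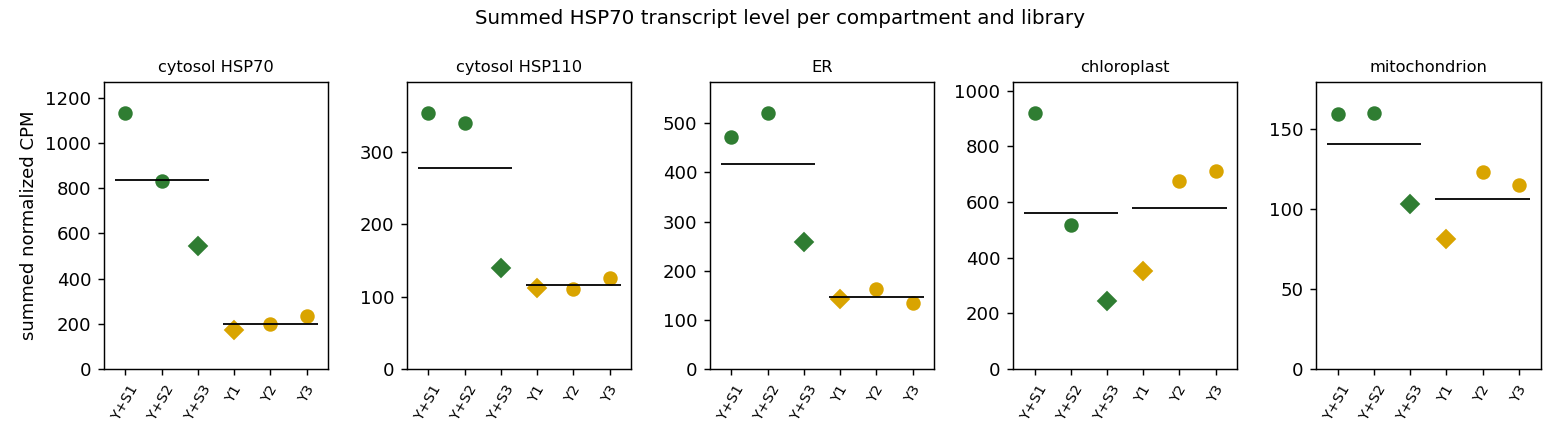
Summed normalized CPM (y axes, from 0, a scale per panel) of the HSP70 unigenes of each compartment in the 6 libraries (x axes), with shaded libraries in green and sunlight libraries in yellow. Diamonds are Y+S3 and Y1, the libraries that the study left out, and lines are group means. Cytosolic HSP70 lies at 543 to 1132 in shaded and at 173 to 233 in sunlight libraries, while the chloroplast panel overlaps.

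The sums of the other compartments fell into 2 patterns. HSP110, the large HSP70 relatives that act as nucleotide exchange factors in the cytosol, summed to 353, 340 and 140 normalized CPM in shaded libraries, against 112, 111 and 126 normalized CPM in sunlight libraries. The ER unigenes summed to 471, 521 and 258 normalized CPM in shaded libraries, against 143, 162 and 134 in sunlight libraries. In both, all shaded sums of normalized CPM were above all sunlight sums, but Y+S3 was by far the lowest of the shaded libraries and for HSP110 only 1.25 times Y1. In deposited FPKM, which is scaled by library totals without TMM, the HSP110 sum of 54.1 in Y+S3 fell inside the sunlight range of 44.8 to 75.6. The chloroplast unigenes summed to 919, 517 and 246 normalized CPM in shaded libraries, against 352, 675 and 713 in sunlight libraries, and the mitochondrial ones to 159, 160 and 103, against 81.2, 123 and 115. These last groups overlapped, with Y+S3 and Y1 the lowest library of their group in both. The differences between compartments were not tested.

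Within a library, the share of each compartment in the summed HSP70 CPM does not depend on depth or scaling. It is not corrected for unigene length. Cytosolic HSP70 made up 37.3%, 35.1% and 42.1% of the summed HSP70 CPM in the shaded libraries Y+S1, Y+S2, Y+S3, against 20.1%, 15.6% and 17.7% in Y1, Y2 and Y3. The chloroplast forms made up 30.3%, 21.8% and 19.0% in shaded libraries, against 40.9%, 53.2% and 54.0% in sunlight libraries. For both compartments the groups did not overlap, with Y+S3 and Y1 included. Y+S3 and Y1, which had the lowest shares of counts on unigenes of at least 3000 nt, also had the lowest chloroplast share of their group. A link was not tested. The ER shares (15.5%, 21.97% and 20.04%, against 16.6%, 12.8% and 10.2%) and the HSP110 shares (11.6%, 14.4% and 10.8%, against 12.97%, 8.76% and 9.55%) overlapped. The mitochondrial share was 5.24%, 6.74% and 7.99% in shaded libraries and 9.44%, 9.68% and 8.68% in sunlight libraries, without overlap. The shares of a library add up to the whole, so a higher cytosolic share by itself lowers the others. A lower share need not mean a lower level. Mitochondrial sums averaged 141 normalized CPM in shaded and 106 in sunlight libraries, and the groups overlapped. Chloroplast sums averaged 561 and 580 normalized CPM, also with overlap.

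**Figure D2:**
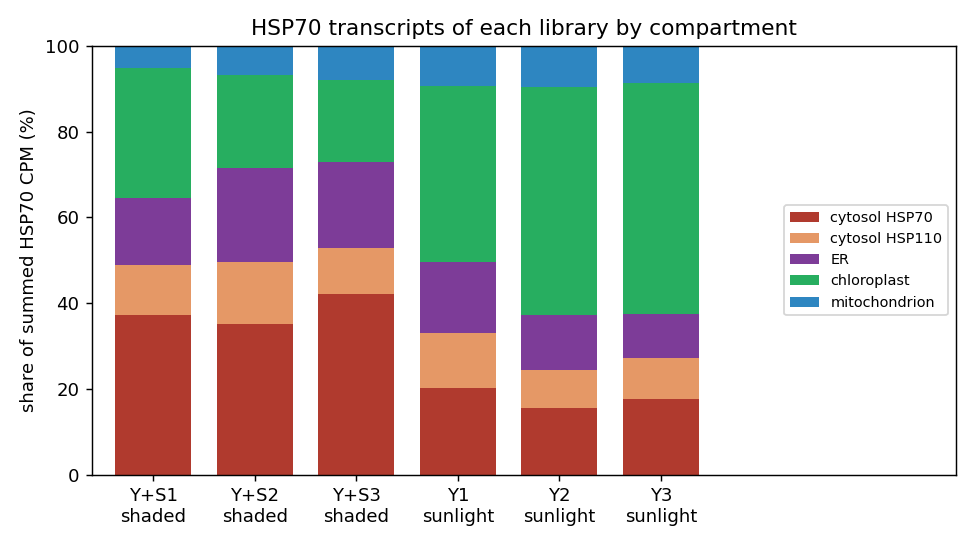
Share of the summed HSP70 CPM (y axis, %) held by each compartment in the 3 shaded libraries (left) and the 3 sunlight libraries (right). Cytosolic HSP70 holds 35.1% to 42.1% in shaded and 15.6% to 20.1% in sunlight libraries, and the chloroplast forms 19.0% to 30.3% and 40.9% to 54.0%.

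Over the 4 libraries, 62 of the 83 HSP70 unigenes passed the filter on low counts, and 51 of them had a fitted fold change above 0 on the log2 scale. Their median log2 fold change was 0.92, beside 0.03 over the 64281 unigenes tested. At least a doubling, 1 or more on the log2 scale, was fitted for 29 of the 62, where 6.95% of all unigenes tested had it. The edgeR quasi-likelihood test with Benjamini-Hochberg adjustment called 5 HSP70 unigenes at an adjusted p of 0.05, all higher in shaded leaves and all cytosolic, beside a background of 0.0451% of unigenes called higher. None was called lower (background 0.00778%). At an unadjusted p of 0.05, 30 of the 62 were higher (background 7.23%) and 0 lower. DESeq2 gave an adjusted p for 57 of them and called 21 higher, 16 in the cytosolic HSP70, 4 in HSP110 and 1 in the ER (background 1.16%), and 0 lower. The 5 calls depended on single libraries, since the count changed whichever library was left out, while the family median log2 fold change was 0.79 to 1.10. In such a fit the lone library of a group is assumed to vary like the other group. After the contigs of a cluster were summed, none was called.

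Over all 6 libraries, 59 of the 83 passed the filter, with a median log2 fold change of 1.28 beside 0.04 over the 59300 unigenes tested. The quasi-likelihood test called 0 of them, and 0% of all unigenes tested. At an unadjusted p of 0.05, 26 of the 59 were higher (background 4.39%) and 0 lower, and 30 reached 1 or more on the log2 scale (background 11.1%). Among the 30 were 7 unigenes that stood out in Y+S3, described below, which over the 4 libraries without it lay between -0.45 and 0.93. DESeq2 called 10, all cytosolic HSP70 and all higher (background 0.628%). In 15 of the 59, every shaded library was above every sunlight library (background 6.54%), and in 2 every shaded library was below (background 7.46%). Of the 15, 13 were cytosolic HSP70, 1 was HSP110 and 1 was the ER form. In deposited FPKM, a comparison added after the data were seen, 11 of the 15 kept this pattern, all of them cytosolic HSP70, and neither of the 2 that were lower did. The share of all unigenes with this pattern in FPKM is not given here, so these FPKM counts are not read as a result about the family.

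**Figure D3:**
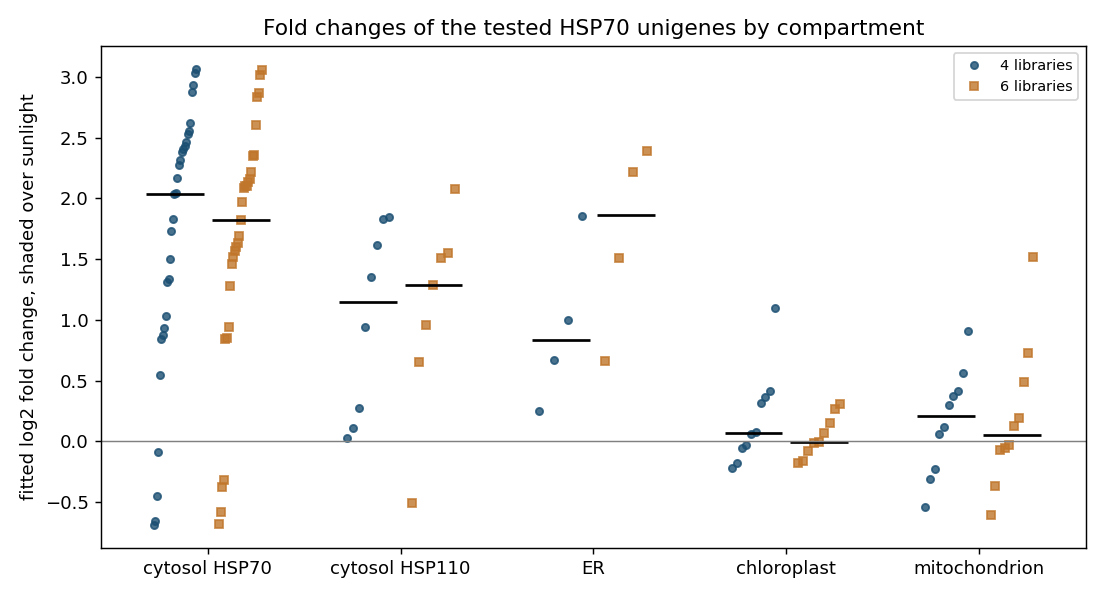
Fitted log2 fold change of shaded over sunlight (y axis) of each tested HSP70 unigene, by compartment (x axis), over 4 libraries (blue circles) and over 6 libraries (orange squares), with medians as black lines. The cytosolic HSP70 medians are 2.04 and 1.82, and the chloroplast medians 0.07 and -0.01.

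Of the 47 cytosolic HSP70 unigenes, 30 were tested over 4 libraries, with a median log2 fold change of 2.04, 26 above 0 and 22 of at least 1. Over 6 libraries the median was 1.82, with 25 of 29 above 0. The unigenes were short, from 208 to 2392 nt with a median of 428 nt, and 24 of the 47 were under 500 nt, so several may be pieces of 1 transcript. Only uniquely aligned fragments were counted, and contigs of near-identical sequence can share fragments that were then lost, so single contigs are less certain than sums. All 16 HSP70 unigenes at 2 or more on the log2 scale over 4 libraries were placed in the cytosolic HSP70. Among them, CL1980.Contig5 and CL1980.Contig8 have a Swiss-Prot name of a chloroplast envelope membrane protein.

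The largest source of these transcripts was a cluster of 14 contigs, CL1980, named heat shock protein 70 or heat shock cognate 70 kDa protein, the form that plants also keep without heat. Its summed level was 836, 596 and 312 normalized CPM in the shaded libraries Y+S1, Y+S2, Y+S3, against 88.7, 122 and 149 in Y1, Y2 and Y3. No shaded library reached down to the sunlight range. The cluster sum had a log2 fold change of 2.45 (SE 0.32) over 4 libraries, with an edgeR adjusted p of 0.116, and of 2.30 (SE 0.50) over 6, with an adjusted p of 0.524.

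CL1980.Contig2 was the most abundant cytosolic HSP70 unigene, with 29.1% of the summed CPM of the group and a best hit to a heat shock protein 70 of tea itself. It had 332, 225 and 165 normalized CPM in shaded libraries, against 46.3, 66.0 and 72.2 in sunlight libraries, more than 2 times as much in the lowest shaded as in the highest sunlight library. The fitted log2 fold change was 2.03 (SE 0.29, edgeR adjusted p = 0.0866) over 4 libraries and 1.97 (SE 0.41, adjusted p = 0.496) over 6, where DESeq2 called it. The called contig CL1980.Contig11 had 157, 115 and 50.1 normalized CPM in shaded libraries, against 8.21, 14.7 and 21.4 in sunlight libraries. Every library kept to its group's side here too. Over 4 libraries its log2 fold change was 2.93 (SE 0.31, edgeR adjusted p = 0.0437).

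CL1980.Contig1, with the largest fitted change of the family over 4 libraries, had 107, 77.2 and 25.8 normalized CPM in shaded libraries, against 3.68, 9.96 and 12.4 in sunlight libraries. The log2 fold change was 3.07 (SE 0.29, edgeR adjusted p = 0.0307) over 4 libraries. CL1980.Contig9 and CL1980.Contig10 were called as well, with log2 fold changes of 2.88 and 3.04 and edgeR adjusted p-values of 0.0437 and 0.0402. In both contigs the groups did not overlap. CL1980.Contig9 had 80.9, 60.3 and 23.3 normalized CPM in shaded libraries, against 3.58, 7.898 and 11.6 in sunlight libraries, and CL1980.Contig10 31.3, 24.3 and 12.1, against 1.26, 2.83 and 4.05. CL1980.Contig3 had 41.1, 30.3 and 8.48 normalized CPM in shaded libraries, against 4.63, 4.55 and 9.08 in sunlight libraries, so that Y+S3 fell just inside the sunlight range. All 14 contigs had a log2 fold change above 0 over 4 libraries, from 0.55 to 3.07. Over 6, 13 were tested and 1 was below 0, CL1980.Contig12, a contig of 252 nt named here after its values were seen, with 7.47 normalized CPM in Y1 against 1.24 to 3.60 in every other library.

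Cytosolic HSP70 unigenes outside this cluster had a median log2 fold change of 1.17 over the 16 tested, 12 of them above 0. Unigene39616, a heat shock cognate-like unigene among those chosen for qRT-PCR, had 53.6, 37.5 and 24.4 normalized CPM in shaded libraries, against 21.7, 9.62 and 10.98 in sunlight libraries. Y+S3 was only just above Y1. Its log2 fold change was 2.17 (SE 0.28, edgeR adjusted p = 0.0677) over 4 libraries and 1.46 (SE 0.46, adjusted p = 0.538) over 6. Unigene51647, whose best hit is an HSP70 of tea, was called, with 17.3, 15.2 and 10.8 normalized CPM in shaded libraries, against 4.42, 2.92 and 2.81 in sunlight libraries. Its log2 fold change was 2.53 (SE 0.27, edgeR adjusted p = 0.0437) over 4 libraries and 2.10 (SE 0.38) over 6.

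Unigene14925, another heat shock protein 70 with a best hit in tea, had 89.8, 53.9 and 55.8 normalized CPM in shaded libraries, against 23.8, 20.004 and 21.1 in sunlight libraries, and here Y+S3 was no lower than Y+S2. Unigene14924 had 48.0, 36.0 and 27.4 normalized CPM in shaded libraries, against 8.42, 6.27 and 11.4 in sunlight libraries. In neither did the groups overlap. Their log2 fold changes over 4 libraries were 1.83 (SE 0.30, edgeR adjusted p = 0.109) and 2.27 (SE 0.34, adjusted p = 0.0936).

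A few cytosolic members did not share the direction. CL1410.Contig3, of 2392 nt and named heat shock cognate 70 kDa protein-like, had 1.67, 2.15 and 1.67 normalized CPM in shaded libraries, against 2.74, 2.83 and 3.30 in sunlight libraries. This was 1 of the 2 HSP70 unigenes with every shaded library below every sunlight library in normalized CPM, which did not hold in FPKM. Its log2 fold change of -0.66 (SE 0.36, edgeR adjusted p = 0.431) over 4 libraries and of -0.68 (SE 0.36, adjusted p = 0.643) over 6 was the lowest of the family over 6. CL1410.Contig2 had 0.906, 1.30 and 1.03 normalized CPM in shaded libraries, against 1.26, 1.63 and 1.98 in sunlight libraries, overlapping by a small margin, with log2 fold changes of -0.69 and -0.58. Averaged over the 6 libraries, these contigs had 2.39 and 1.35 normalized CPM, against 151 for CL1980.Contig2.

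Other cytosolic members, named here after their values were seen, lay on both sides. Unigene14923 had 23.5, 15.6 and 8.48 normalized CPM in shaded libraries, against 1.37, 2.40 and 4.05 in sunlight libraries, and CL8819.Contig2, of 992 nt, had 9.49, 9.22 and 7.45, against 4.11, 3.09 and 3.63. In neither did the groups overlap, and the shaded libraries of CL8819.Contig2 were close together with Y+S3 included. The Swiss-Prot name of CL8819.Contig2 is that of a chloroplast envelope membrane protein. Unigene27246, of 1398 nt, had 4.72, 4.75 and 2.06 normalized CPM in shaded libraries, against 4.32, 4.89 and 5.37 in sunlight libraries, with overlap and a log2 fold change of -0.09 (SE 0.27, edgeR adjusted p = 0.916) over 4 libraries.

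The remaining 18 cytosolic members did not pass the filter on low counts over 6 libraries, and each held at most 80 counts over all libraries. In 9 of them no count was seen in any sunlight library, where a count of 0 allows up to 3 counts, or 0.240 to 0.299 CPM before scaling. This limit covers counting error only. The share of all unigenes with this pattern is not given here, so the 9 are not read as a result about the family. Y+S1 was also the deepest library. Unigene62455 and Unigene66605, picked after their values were seen and with a protist and an oomycete as best hit, had counts only there. Unigene18018, named after its values were seen, had 14, 10 and 5 counts in shaded libraries and 0 in each sunlight library.

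**Figure D4:**
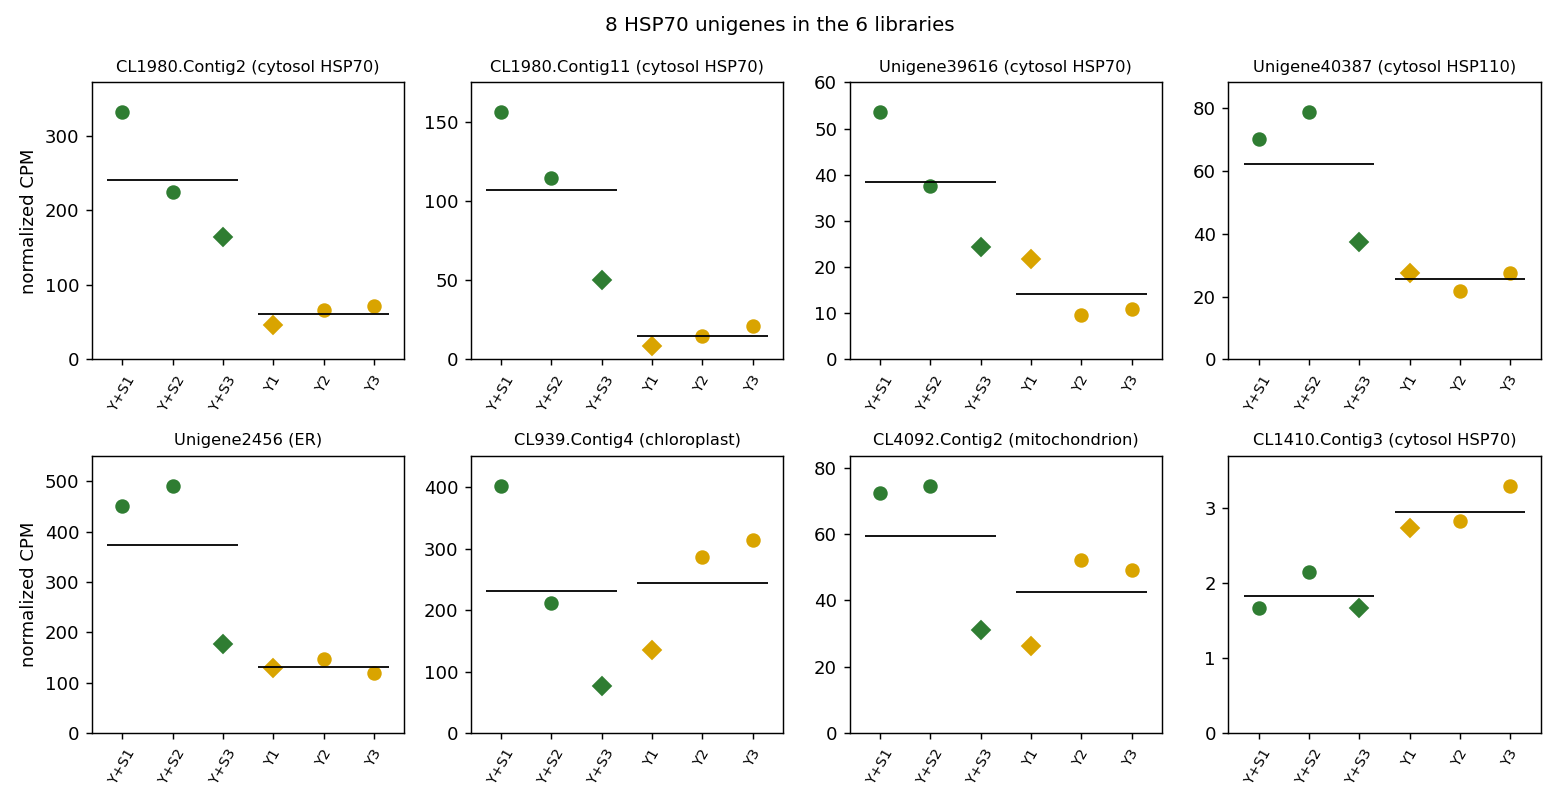
Normalized CPM (y axes, from 0, a scale per panel) of 8 HSP70 unigenes in the 6 libraries (x axes), shaded in green and sunlight in yellow, with group means as lines and Y+S3 and Y1 as diamonds. CL1980.Contig2, CL1980.Contig11, Unigene39616, Unigene40387 and Unigene2456 are higher in every shaded library, CL939.Contig4 and CL4092.Contig2 overlap, and CL1410.Contig3 is lower in every shaded library.

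HSP110 was represented by 8 unigenes, all tested over 4 libraries and all with a log2 fold change above 0, with a median of 1.15. CL3912.Contig1 (0.03) and Unigene44687 (0.11), named after their values were seen, lay near 0. Over 6 libraries 6 of 7 were above 0, and CL3912.Contig2 was at -0.51. None was called by the quasi-likelihood test in either comparison. DESeq2 called 4 higher over 4 libraries (background 1.16%) and none over 6. The cluster CL12094, named heat shock 70 kDa protein 15-like after an HSP110 of Arabidopsis, supplied 3 contigs. CL12094.Contig1 had 122, 121 and 32.1 normalized CPM in shaded libraries, against 24.95, 33.7 and 36.0 in sunlight libraries. Y+S1 and Y+S2 were more than 3 times any sunlight library, and Y+S3 was inside the sunlight range. The log2 fold change was 1.83 (SE 0.24, edgeR adjusted p = 0.0681) over 4 libraries and 1.55 (SE 0.53, adjusted p = 0.569) over 6.

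CL12094.Contig2 had 49.9, 49.6 and 13.4 normalized CPM in shaded libraries, against 11.9, 12.1 and 16.02 in sunlight libraries, and CL12094.Contig3 had 95.6, 74.3 and 20.8, against 31.4, 32.1 and 35.5. Y+S3 lay within the sunlight range in the first and below it in the second contig. Their log2 fold changes over 4 libraries were 1.85 and 1.35. Unigene40387, an HSP70 15 by its Swiss-Prot name and also among those chosen for qRT-PCR, had 70.1, 78.8 and 37.4 normalized CPM in shaded libraries, against 27.5, 21.9 and 27.6 in sunlight libraries. It was the HSP110 unigene in which all shaded libraries were above all sunlight libraries in normalized CPM, while its FPKM of 25.5 in Y+S3 lay inside the sunlight range of 20.5 to 32.7. It had a log2 fold change of 1.61 (SE 0.25, edgeR adjusted p = 0.1002) over 4 libraries and 1.28 (SE 0.38, adjusted p = 0.528) over 6.

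In the ER, 1 unigene held most of the transcripts. Unigene2456, a luminal-binding protein 5 (BiP) of 2120 nt, made up 95.7%, 94.4% and 68.3% of the summed CPM of the ER members in shaded libraries, against 90.6%, 90.2% and 88.9% in sunlight libraries. Its FPKM was 238, 299.9 and 57.9 in shaded libraries, against 46.3, 74.6 and 68.0 in sunlight libraries, so on this scale Y+S3 fell inside the sunlight range. On the scaled counts it had 451, 491 and 177 normalized CPM in shaded libraries, against 129, 146 and 119 in sunlight libraries, without overlap. The log2 fold change was 1.85 (SE 0.27, edgeR adjusted p = 0.0936) over 4 libraries and 1.51 (SE 0.47, adjusted p = 0.538) over 6. DESeq2 called it over 4 libraries and not over 6.

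Unigene14747, the other ER form with a grapevine luminal-binding protein as best hit, had 13.9, 16.4 and 9.51 normalized CPM in shaded libraries, against 10.001, 7.47 and 7.92 in sunlight libraries. Y+S3 was below Y1. Its log2 fold change was 1.0003 (SE 0.25, edgeR adjusted p = 0.183) over 4 libraries. The median of the 4 ER members tested was 0.83 over 4 libraries and 1.86 over 6, and without Unigene50836 and Unigene34626, which were highest in Y+S3, it was 1.09 over 6. Without Y+S2 the median over 4 libraries was 0.30.

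The abundant chloroplast contigs, those of the cluster CL939, did not differ between the groups beyond their spread. Of 12 unigenes, 10 were tested over 4 libraries, with a median log2 fold change of 0.07, 6 above and 4 below 0, and none had an unadjusted p of 0.05 or less in either comparison. CL939.Contig4, a stromal 70 kDa heat shock-related protein of 3656 nt, had 402, 212 and 76.8 normalized CPM in shaded libraries, against 135, 286 and 313 in sunlight libraries. The range within either group was wider than the distance between the groups. The fit gave a log2 fold change of 0.06 (SE 0.34, edgeR adjusted p = 0.960) over 4 libraries.

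CL939.Contig5 had 275, 144 and 73.9 normalized CPM in shaded libraries, against 112, 216 and 228 in sunlight libraries, the same pattern over libraries. CL939.Contig6 had 164, 99.2 and 47.1 normalized CPM in shaded libraries, against 51.9, 102 and 98.5 in sunlight libraries, and CL939.Contig8 had 33.3, 25.3 and 27.2, against 30.6, 33.8 and 33.5. Their log2 fold changes over 4 libraries were -0.06, 0.41 and -0.18, with SEs of 0.34, 0.30 and 0.25. The lowest library was Y+S3 in the first 2 of these and Y+S2 in CL939.Contig8. The low cluster CL3304, named after its values were seen, summed to 4.29, 5.54 and 3.47 normalized CPM in shaded libraries, against 2.84, 3.09 and 3.38 in sunlight libraries, without overlap by a small margin, and had a log2 fold change of 0.64 (SE 0.31, edgeR adjusted p = 0.391) over 4 libraries. Of the unigenes here placed in the cytosol by their NR name, 4 have a Swiss-Prot name of a chloroplast envelope membrane protein. They are CL1980.Contig5, CL1980.Contig8, CL7111.Contig2 and CL8819.Contig2. When these were moved to the chloroplast, its median over 4 libraries became 0.32.

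The mitochondrial members were lower in level and had small fitted changes, none of them called. All 10 were tested over 4 libraries, with a median log2 fold change of 0.21, 7 above and 3 below 0. By the edgeR quasi-likelihood test, 2 had an unadjusted p of 0.05 or less, both higher (background 7.23% higher) and both contigs of the cluster CL4092. Over 6 libraries none did. CL4092.Contig2, named heat shock 70 kDa protein, mitochondrial-like, had 72.5, 74.5 and 31.1 normalized CPM in shaded libraries, against 26.1, 52.1 and 49.2 in sunlight libraries. Y+S1 and Y+S2 were the highest and Y+S3 and Y1 the lowest. The log2 fold change was 0.56 (SE 0.23, edgeR adjusted p = 0.313) over 4 libraries and 0.49 (SE 0.46) over 6.

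CL4092.Contig1 had 36.8, 32.3 and 10.9 normalized CPM in shaded libraries, against 11.1, 21.5 and 16.02 in sunlight libraries, and CL4092.Contig3 had 22.6, 23.9 and 13.9, against 23.6, 20.4 and 18.1. The log2 fold changes were 0.90 (SE 0.26, edgeR adjusted p = 0.207) and 0.30 (SE 0.24, adjusted p = 0.596) over 4 libraries. The second mitochondrial cluster stayed low, and its CL2160.Contig1, an HSP70 10 by its Swiss-Prot name, had 6.34, 5.997 and 3.98 normalized CPM in shaded libraries, against 6.74, 7.73 and 10.6 in sunlight libraries. Every shaded library was below every sunlight library, the other of the 2 cases in the family, but not in FPKM. The fit gave a log2 fold change of -0.54 (SE 0.28, edgeR adjusted p = 0.408) over 4 libraries and -0.60 (SE 0.37, adjusted p = 0.671) over 6.

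In FPKM, which allows levels to be compared between unigenes, the order depended on the group. In shaded libraries Unigene2456 of the ER came first with a mean of 199, followed by CL1980.Contig2 with 157 and Unigene14925 with 111. In sunlight libraries the chloroplast contigs CL939.Contig4 and CL939.Contig5 came first with 72.1 and 70.8, followed by Unigene2456 with 63.0 and CL1980.Contig2 with 39.3. The ranges over libraries of neighbours in either order overlapped. Over all 6 libraries, the highest HSP110 unigene was Unigene40387 with 46.5 FPKM, and the highest mitochondrial one CL4092.Contig2 with 20.97 FPKM. Of the 83, 23 averaged at least 10 FPKM and 20 less than 1.

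In 8 HSP70 unigenes, picked after their values were seen, the level in Y+S3 was more than 2 times that in any other library, by 2.42 to 10.1 times, with at least 20 counts there. They were spread over the cytosol (CL5657.Contig2, Unigene50934, Unigene51234 and, as HSP110, Unigene44687), the ER (Unigene34626, Unigene50836, Unigene73008) and the mitochondrion (Unigene20809). Unigene50836 had 4.53, 9.68 and 58.2 normalized CPM in shaded libraries, against 3.37, 6.52 and 5.61 in sunlight libraries, and Unigene20809 had 2.67, 7.02 and 38.8, against 4.63, 6.52 and 5.70. Unigene34626 had 1.14, 3.23 and 10.8, against 0.00, 1.55 and 1.24. Over 6 libraries the 7 that were tested had log2 fold changes of 1.52 to 2.39, and over 4 libraries, without Y+S3, of -0.45 to 0.93.

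**Figure D5:**
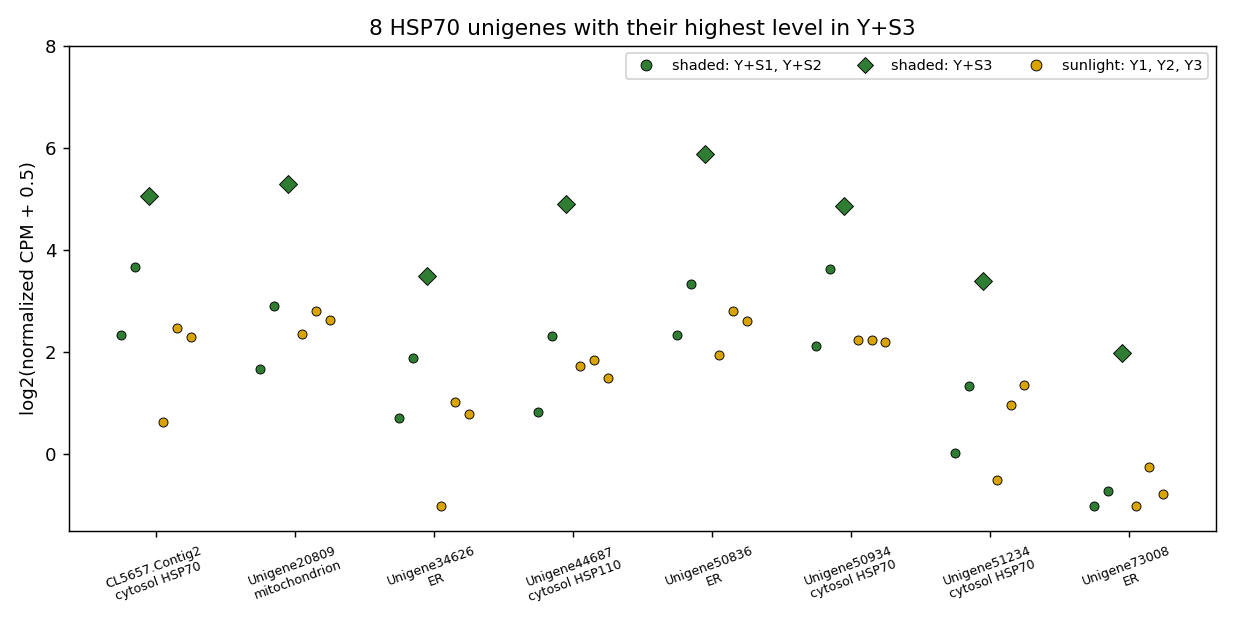
Level, as log2(normalized CPM + 0.5) (y axis), of 8 HSP70 unigenes (x axis) in the shaded libraries (green, with Y+S3 as a diamond) and the sunlight libraries (yellow). The points were picked for their height in Y+S3, which is 2.42 to 10.1 times the next library.

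The best NR hits of these 8 unigenes were unlike those of the rest. In 4 the hit was barley (Hordeum vulgare), in 3 an alga or an oomycete, and in 1 Arabidopsis, while among all 83 there were 4 hits to barley and 9 to algae, oomycetes or other protists. Over the whole table, the 3053 unigenes with a best hit in algae, oomycetes or other protists, a list of genera made after the data were seen, took 0.295%, 0.854% and 3.34% of the counts in the shaded libraries Y+S1, Y+S2, Y+S3, against 0.513%, 0.473% and 0.468% in Y1, Y2 and Y3. The 448 unigenes with a barley hit took 0.0791%, 0.178% and 0.827% in shaded libraries, against 0.162%, 0.122% and 0.111% in sunlight libraries. Both shares were highest in Y+S3 and lowest in Y+S1. Without members of these hits, the median log2 fold change over 6 libraries was 0.85 for the family and 1.09 for the ER, and the cytosolic median stayed within the spread between libraries. The part of these sequences in the other results was not tested.

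The pair of libraries that the study left out gives a contrast of its own, with 1 library per group and no test. Among the 29 cytosolic HSP70 unigenes tested over 6 libraries, 24 were higher in Y+S3 than in Y1, with a median log2 difference of 1.15 in normalized CPM with 0.5 added. Over the 59300 unigenes tested, 46.3% were higher and the median was -0.08. For HSP110, 4 of 7 were higher (median 0.16), for the chloroplast 3 of 9 (median -0.17) and for the mitochondrion 2 of 10 (median -0.66). The ER median of 2.19 over 4 unigenes, 3 of them higher, includes 2 of the unigenes that stood out in Y+S3. Others of that set are among those counted as higher in the cytosol (CL5657.Contig2, Unigene50934, Unigene51234), in HSP110 (Unigene44687) and in the mitochondrion (Unigene20809).

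The annotation also differed within the family. The Gene Ontology term response to heat was attached to 50 of the 83 unigenes, and over 4 libraries the 43 tested of these had a median log2 fold change of 1.499, against 0.08 for the 19 tested without it. Among the 59 tested over 6 libraries, 41 carried the term, and so did all 15 whose shaded libraries lay above all sunlight libraries. Of these 15, 13 were cytosolic HSP70, and 7 were contigs of the cluster CL1980. The term was not separated from compartment or cluster. Of the untested unigenes with every shaded library above every sunlight library, 3 of 8 carried the term. How many untested unigenes of the whole table had this pattern is not given here, so the 8 are not read as a result about the family. It was attached to 31 of 47 cytosolic HSP70, 5 of 8 HSP110, 3 of 6 ER, 6 of 12 chloroplast and 5 of 10 mitochondrial unigenes. The term is given per unigene, and contigs of 4 clusters were split on it, 12 with and 2 without it in CL1980 and 3 with and 5 without it in CL939. In 15 of the 83, the Swiss-Prot name was mediator of RNA polymerase II transcription subunit 37, a second name for Arabidopsis HSP70 and BiP proteins.

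Of the 8 unigenes that share only a word of the name, 2 were called over 4 libraries, both of them HSP90 and higher in shaded leaves. CL3897.Contig4, an HSP90 named heat shock cognate protein 80 and also among those chosen for qRT-PCR, had 52.6, 72.1 and 12.3 normalized CPM in shaded libraries, against 3.47, 4.21 and 4.79 in sunlight libraries, with a log2 fold change of 3.82 (SE 0.30, edgeR adjusted p = 0.0252) over 4 libraries. Unigene15502, also of HSP90, had 90.5, 125 and 93.8 normalized CPM in shaded libraries, against 37.5, 17.6 and 15.2 in sunlight libraries, with a log2 fold change of 2.74 (SE 0.28, edgeR adjusted p = 0.0433). In both the groups did not overlap. Over 6 libraries DESeq2 called both (adjusted p = 0.000215 for CL3897.Contig4 and 0.00634 for Unigene15502), while the quasi-likelihood test called neither, as it called no unigene at all there. HspBP1 and FES1, nucleotide exchange factors of HSP70, had 5 unigenes with log2 fold changes over 4 libraries of -0.38 to 1.58. None was called by the quasi-likelihood test, and DESeq2 called 1, the HspBP1 unigene CL9642.Contig2 (adjusted p = 0.000571), named here after its values were seen.

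The partners and the other chaperones were found by words in the NR name. The lists of HSP90 and of Fes1, HspBP1 or Hsp70-binding proteins include the unigenes of the paragraph before. CL3897.Contig4, Unigene15502 and CL9642.Contig2 are thus counted again in the calls of these lists. Among HSP90 unigenes, which take over client proteins from HSP70, 5 of 17 tested were called higher over 4 libraries by the edgeR quasi-likelihood test, where 0.0451% of all unigenes were called, and the median of the list was 0.83. Among HSP100 or ClpB, which pull proteins out of aggregates together with HSP70, 1 of 11 was called higher, with a median of 0.68. For the heat stress transcription factors, which switch on chaperone genes, the count was 1 of 23 higher, with a median of 0.25. The small heat shock proteins, which bind unfolded proteins without ATP, lay on the other side, with a median of -0.67, 15 of 18 below 0, 1 called lower and 0 higher. DESeq2 called 4 of them lower (background 1.26%) and 1 higher.

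DnaJ unigenes, the co-chaperones that bring clients to HSP70, had a median log2 fold change of 0.13 over 82 tested, with 0 called by the quasi-likelihood test and 5 called higher by DESeq2 (background 1.16%). The 6 GrpE unigenes, exchange factors of the organelle forms, had a median of -0.21 with 5 below 0. The 3 tested BAG unigenes had a median of 1.74, the 4 Hip unigenes 0.42, the 6 unigenes of Fes1, HspBP1 or Hsp70-binding proteins 0.39, and the 3 CHIP unigenes -0.09. The quasi-likelihood test called none in these 5 lists, and DESeq2 called 1 BAG unigene and 1 of Fes1, HspBP1 or Hsp70-binding, both higher. The single Hop unigene did not pass the filter. ER folding partners (calreticulin, calnexin and disulfide isomerases) had a median of 0.16 over 38 tested with 0 called by the quasi-likelihood test and 2 called higher by DESeq2. Over 6 libraries, where the quasi-likelihood test called no unigene at all, DESeq2 called 5 HSP90 unigenes and 1 heat stress transcription factor higher and none in the other lists (background 0.628%).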

How the data were processed

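The authors sequenced stranded mRNA libraries, built unigenes from the clean reads with Trinity, TGICL and Phrap, and annotated them by Blast. The authors deposited, per unigene and library, the raw count of uniquely aligned fragments and the FPKM. The aligner is not given in the sources used here. Of the table, 1 unigene is not analysed here.

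Counts passed through filterByExpr and TMM scaling of edgeR 4.0.16 (R 4.3.3), whose quasi-likelihood test was run over all unigenes. DESeq2 1.42.0 and limma 3.58.1 on log2(FPKM + 0.5) or log2(FPKM + 0.1) served as alternatives, with others given in the closing section. SEs of log2 fold changes were derived from the F statistic. The script was tested on simulated data. Summaries and plots used Python 3.11.15, pandas 2.3.3, numpy 2.4.6 and matplotlib 3.10.9.

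Shaded and sunlight libraries were compared over the 4 libraries of the study (without Y+S3 and Y1) and over all 6. Each library came from different plants. The named unigenes are the 3 with an HSP70 or luminal-binding name that the study measured by qRT-PCR, the most abundant in each compartment (8 of cytosolic HSP70, 4 elsewhere), all that were called, and the 3 lowest over 6 libraries. The members and lists were chosen with earlier results of these data known. Unigenes were placed by ortholog number and name, and no sequence is shown.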

Additional observations from a re-analysis of the deposited data

How the results depend on the processing

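The count of HSP70 unigenes called over 4 libraries, 5 with edgeR's quasi-likelihood test, moved with most settings. It was 21 with DESeq2, 24 with edgeR's likelihood ratio test, 10 with library totals in place of TMM and 21 without a filter on low counts. It was 2 with limma on log2(FPKM + 0.1), and 0 with cluster sums, at an adjusted p of 0.001 and at least a doubling (1 on the log2 scale), and over all 6 libraries. With 1 library left out it ranged from 0 to 28. Over 6 libraries 0 were called, but 10 with DESeq2 and 8 with the likelihood ratio test, and 0 with any 1 library left out. The DESeq2 background of unigenes called higher was 1.16% over 4 and 0.628% over 6 libraries. For the other alternative settings the share of all unigenes called is not given here, so those counts are not read as results about the family. The causes of these changes in count were not tested.

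The family median log2 fold change, 0.92 over 4 libraries, was 0.74 with limma on log2(FPKM + 0.5), 1.31 without a filter, 0.75 for members of at least 500 nt, 1.28 over all 6 libraries, and 0.79 to 1.10 with 1 library left out. Over 6 libraries, where it was 1.28, it was 0.91 with limma on log2(FPKM + 0.1), 0.83 with log2(FPKM + 0.5), 1.53 without a filter, 1.41 with cluster sums, 0.89 for members of at least 500 nt, 0.85 without alga, oomycete, protist or barley hits, a setting chosen after seeing the data, and 1.01 to 1.30 with 1 library left out.

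The cytosolic HSP70 median, 2.04 over 4 libraries, was 1.69 with cluster sums, 2.32 without a filter, 1.42 for members of at least 500 nt, 1.82 over all 6 libraries, and 1.97 to 2.16 with 1 library left out. Over 6 libraries it was 2.13 without a filter and 1.76 to 2.08 with 1 library left out. The HSP110 median over 4 libraries was 0.97 with cluster sums and 1.09 to 1.33 with 1 library left out. The ER median was 1.86 over all 6 libraries, 0.30 to 1.16 with 1 of the 4 left out, 1.04 to 2.02 with 1 of the 6 left out, and 1.09 over 6 without the hits named above. The chloroplast median over 4 libraries was 0.32 with the envelope names moved to it, a setting also chosen after seeing the data, and 0.0011 to 0.29 with 1 library left out. The mitochondrial median over 4 libraries was -0.0014 with cluster sums, 0.049 over all 6 libraries and 0.076 to 0.29 with 1 library left out.

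Among the named unigenes, the log2 fold change over 4 libraries changed sign over all 6 libraries for CL4092.Contig3 (-0.028), CL939.Contig4 (-0.081) and Unigene20809 (1.52). With 1 library left out it ranged from -0.48 to 0.44 for CL939.Contig4, from -0.61 to 0.32 for CL939.Contig5, from -1.18 to 0.22 for Unigene20809, from -0.27 to 1.23 for Unigene34626 and from -0.41 to 0.69 for Unigene50836. The other named unigenes kept their sign over 4 libraries under every setting run.

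Whether the replicate numbers pair the libraries could not be decided. The deviations of same-numbered libraries from their group means had correlations of -0.37, 0.01 and -0.48. Deviations within a group are tied to each other through its mean, and the highest correlation, 0.42, was that of Y+S3 and Y1, which carry different numbers. With the replicate block over 6 libraries, 0 HSP70 unigenes were called, and the family median was 0.91.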
